A study of Mus musculus with 9 samples.

Results

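Receptors for the Fc part of antibodies, a group of paired immunoglobulin-like receptors and the surface protein CD101 were examined in neutrophils of young mice with and without an active form of RagC. The members are 10 genes, Fcgr2b, Fcgr3, Fcgr4, Fcer1g, Pirb, Pilra, Cd300ld, Cd300lf, Sirpa and Cd101, found by symbol among the 7197 genes of the deposited table. All 10 were listed, and all 10 passed the filter on low values that left 6673 genes for testing. The list was chosen by gene family, except that Cd101 was selected on its lower value in RragcS74N/+ libraries, so the differences between genotypes are given for the members as a description without a test. Each of the 5 Rragc+/+ and 4 RragcS74N/+ libraries came from bone marrow of mice aged 2 months. RragcS74N/+ mice carry 1 germline allele, edited by Crispr, that encodes RagC with a serine replaced by asparagine, and Rragc+/+ mice carry none. RagC belongs to the Rag GTPases, proteins that report amino acid supply to the kinase complex mTORC1. The sort kept CD45+, CD11b+, Ly6G+ cells, and the labels do not tie the libraries to animals, so p-values measure only the spread between libraries.

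Activating and inhibitory receptors sit side by side on the neutrophil surface. Activating Fc receptors bind antibody-coated targets and signal through tyrosine motifs (ITAMs) of a shared adaptor chain, which recruit kinases and start phagocytosis and the oxidative burst. Inhibitory receptors carry a different tyrosine motif (ITIM) that recruits phosphatases and damps the same signals, and many of them belong to families in which activating and inhibitory relatives are encoded close together. CD101, an immunoglobulin superfamily protein, appears on neutrophils late in their maturation in the bone marrow.

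Promoter sequences were taken from RefSeq on GRCm38.p6, an earlier assembly than the authors' GRCm39, and 9 of the 10 members had one (Sirpa was without an entry). Each window holds 250 bases before and 50 bases after the gene start, read along the gene. The windows lie at chr1:170976022-170976321, chr1:171059354-171059653, chr1:171018676-171018975 and chr1:171234300-171234599 for the Fc receptor genes, which share a region of chromosome 1. They lie at chr7:3720333-3720632 for Pirb, chr5:137836229-137836528 for Pilra and chr3:101029504-101029803 for Cd101. The CD300 genes share a region of chromosome 11, at chr11:114989837-114990136 for Cd300ld and chr11:115133943-115134242 for Cd300lf. Fcgr4 is on the plus strand and the other 8 are on the minus strand.

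The promoters of Pirb and Pilra are shown because these genes varied together between libraries. That of Cd101 is shown because this gene had the most negative difference between genotypes. Those of Fcgr2b and Fcgr3 are shown because these genes encode an inhibitory and an activating receptor for the same ligand. Capitals mark matches on either strand to GAGGAA, the core bound by the myeloid factor PU.1, to TTNCNNAA, a relaxed C/EBP motif, and to TTCNNNGAA, the GAS motif bound by STAT factors.
Pirb: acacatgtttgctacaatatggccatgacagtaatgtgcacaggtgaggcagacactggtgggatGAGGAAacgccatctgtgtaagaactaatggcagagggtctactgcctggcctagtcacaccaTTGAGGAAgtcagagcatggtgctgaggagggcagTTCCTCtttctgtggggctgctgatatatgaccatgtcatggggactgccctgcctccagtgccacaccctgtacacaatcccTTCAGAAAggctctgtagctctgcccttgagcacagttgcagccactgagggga
Pilra: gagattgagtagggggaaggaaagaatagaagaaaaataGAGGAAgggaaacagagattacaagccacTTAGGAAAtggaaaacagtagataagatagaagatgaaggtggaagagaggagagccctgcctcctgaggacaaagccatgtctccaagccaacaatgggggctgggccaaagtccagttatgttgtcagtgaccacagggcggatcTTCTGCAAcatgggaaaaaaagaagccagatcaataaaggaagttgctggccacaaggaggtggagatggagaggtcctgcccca
Cd101: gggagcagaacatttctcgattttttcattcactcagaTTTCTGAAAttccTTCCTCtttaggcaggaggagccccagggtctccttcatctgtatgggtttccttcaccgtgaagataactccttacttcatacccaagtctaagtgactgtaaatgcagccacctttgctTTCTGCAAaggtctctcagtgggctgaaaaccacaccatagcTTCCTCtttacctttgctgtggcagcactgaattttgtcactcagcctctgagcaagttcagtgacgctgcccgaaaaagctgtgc
Fcgr2b: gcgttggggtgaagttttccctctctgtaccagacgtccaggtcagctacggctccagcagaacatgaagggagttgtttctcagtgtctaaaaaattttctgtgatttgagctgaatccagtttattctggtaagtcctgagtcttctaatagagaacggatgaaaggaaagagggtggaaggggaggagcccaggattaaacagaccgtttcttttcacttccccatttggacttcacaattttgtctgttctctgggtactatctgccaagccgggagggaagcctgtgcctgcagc
Fcgr3: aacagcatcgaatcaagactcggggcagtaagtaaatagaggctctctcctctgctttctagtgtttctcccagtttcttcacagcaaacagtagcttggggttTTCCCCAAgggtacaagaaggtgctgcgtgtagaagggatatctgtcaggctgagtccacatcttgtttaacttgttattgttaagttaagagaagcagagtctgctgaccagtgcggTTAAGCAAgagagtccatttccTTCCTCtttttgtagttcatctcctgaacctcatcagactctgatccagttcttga

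A PU.1 core was present in 7 of the 9 promoters, against 28.3% of 27025 promoters of the same length in the table. A C/EBP match was present in 7 of 9, against 40.7%, and a GAS match in 0 of 9, against 8.47%. These shares were not tested and not matched for base composition. GC content ran from 45.0% (Fcgr3) to 55.7% (Fcer1g) in the 9 promoters, against a median of 52.7% over all promoters. Pirb held 3 PU.1 cores and 2 C/EBP matches, and 1 of the latter overlaps a core. Pilra held 1 PU.1 core and 2 C/EBP matches, and Cd101 held 2 cores and 3 C/EBP matches, of which a pair overlap each other on opposite strands. Fcgr2b and Fcer1g held no match, and this says only that these letters are not in the window. The 2 printed Fc receptor promoters thus differ in these letters, since that of Fcgr3 holds 1 core and 2 C/EBP matches.

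Reads over the listed genes numbered 1214295 to 1973957 per library. The values are normalized counts, that is gene reads divided by a size factor per library. The libraries read the 3′ ends of transcripts, so these values do not scale with transcript length, and levels of different genes are not compared. Across all genes, 0 of 6673 passed an adjusted p of 0.05 between genotypes (limma, Benjamini-Hochberg), or 0%, with 388 at an unadjusted p under 0.05. edgeR's quasi-likelihood test gave 0 adjusted and 460 unadjusted, and DESeq2 gave 0 and 447. The genotypes were free of overlap in 113 genes (1.69%), with 45 (0.674%) higher and 68 (1.02%) lower in RragcS74N/+ libraries. No member was free of overlap and none passed the adjusted threshold.

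Fcgr3 and Fcgr4 encode activating receptors for IgG, and both had slightly lower means in RragcS74N/+ neutrophils. Normalized counts of Fcgr3 were 1055, 1267, 1275, 887 and 1156 in Rragc+/+ replicates 1 to 5 and 905, 984, 918 and 1057 in RragcS74N/+ replicates 1 to 4. All 4 RragcS74N/+ libraries were below the Rragc+/+ median of 1156, and all 4 were above the lowest Rragc+/+ library, replicate 4. The log2 difference (RragcS74N/+ minus Rragc+/+, on the log2(value + 1) scale) was -0.21 with a standard error of 0.16.
Fcgr4 measured 210, 375, 261, 242 and 259 normalized counts in Rragc+/+ and 240, 224, 173 and 274 in RragcS74N/+. Rragc+/+ replicate 2 was the highest and RragcS74N/+ replicate 3 the lowest, with the other 7 libraries between 210 and 274. The log2 difference was -0.23 ± 0.20 (standard error), and it was -0.11 without Rragc+/+ replicate 2 and -0.11 without RragcS74N/+ replicate 3.

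Fcer1g encodes the common γ chain, the ITAM adaptor that carries the activating Fc receptors to the surface and transmits their signal. Its normalized counts were 2531, 2387, 2208, 2337 and 2060 in Rragc+/+ and 1570, 2013, 2113 and 2412 in RragcS74N/+ libraries. RragcS74N/+ replicate 1 stood below all others, while replicate 4 exceeded 4 of the 5 Rragc+/+ values. The log2 difference of -0.20 ± 0.16 (standard error) ranged from -0.29 to -0.08 when each library was left out in turn, the latter without RragcS74N/+ replicate 1.

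Fcgr2b encodes the inhibitory IgG receptor, and it had the most positive difference of the members. Its normalized counts were 44.1, 15.2, 17.8, 25.7 and 54.1 in Rragc+/+ and 53.7, 43.7, 56.5 and 48.1 in RragcS74N/+, from 13 to 81 reads a library. The RragcS74N/+ libraries lay close together at the upper end, whereas the Rragc+/+ libraries spread 3.56-fold, with replicates 1 and 5 inside the RragcS74N/+ range and replicates 2, 3 and 4 below it. The log2 difference was 0.83 ± 0.33 (standard error), and it was 0.62 without Rragc+/+ replicate 2 and 1.06 without Rragc+/+ replicate 5. With all libraries it was 0.66 in edgeR and 0.68 in DESeq2.
Fcgr2b and Fcgr3 are related in sequence, and 12.8% of the 50-base words of the Fcgr3 transcript also occur in that of Fcgr2b. In the last 500 bases, where these libraries are read, neither gene shared a 50-base word with any other gene.

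Pirb and Pilra encode inhibitory receptors, the former for MHC class I molecules, and the ratio of the means, RragcS74N/+ over Rragc+/+, was 1.05 for Pirb and 1.01 for Pilra. Pirb measured 443, 502, 441, 389 and 412 normalized counts in Rragc+/+ and 490, 469, 403 and 483 in RragcS74N/+. Pilra measured 537, 665, 518, 392 and 482 in Rragc+/+ and 555, 497, 449 and 600 in RragcS74N/+. For both genes the highest library was Rragc+/+ replicate 2 and the lowest was Rragc+/+ replicate 4, so the RragcS74N/+ values lay inside the Rragc+/+ range. The log2 differences were 0.08 ± 0.15 for Pirb and 0.03 ± 0.18 for Pilra (standard errors). With each library left out, that of Pirb lay between 0.04 (without Rragc+/+ replicate 4) and 0.14 (without RragcS74N/+ replicate 3), and that of Pilra between -0.07 (without Rragc+/+ replicate 4) and 0.12 (without Rragc+/+ replicate 2). Pirb has near relatives, the Pira genes, and Pira1, Pira2, Pira6, Pira11 and Pira12 were not listed. At the 3′ end, 4 of 451 of the 50-base words of Pirb recurred in other genes.

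Cd300lf encodes an inhibitory and Cd300ld an activating receptor of the CD300 family. Normalized counts of Cd300lf were 934, 1303, 1132, 1068 and 759 in Rragc+/+ and 1132, 953, 809 and 758 in RragcS74N/+, with a log2 difference of -0.18 ± 0.19 (standard error). Cd300ld measured 735, 345, 516, 343 and 534 in Rragc+/+ and 594, 534, 516 and 652 in RragcS74N/+, with a log2 difference of 0.27 ± 0.22 (standard error). The genotypes overlapped for both genes. The difference of Cd300lf was -0.09 without Rragc+/+ replicate 2, -0.10 without RragcS74N/+ replicate 4 and -0.29 without either Rragc+/+ replicate 5 or RragcS74N/+ replicate 1. That of Cd300ld was 0.15 without either Rragc+/+ replicate 2 or 4 and 0.43 without Rragc+/+ replicate 1. The signs of the 2 genes stayed opposite in each case. At the 3′ end 16 of 450 words of Cd300lf and 0 of 451 of Cd300ld recurred in other genes. Cd300ld spread 2.14-fold in Rragc+/+ and 1.26-fold in RragcS74N/+ libraries.

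Sirpa encodes the inhibitory receptor for CD47, the ligand by which cells signal to phagocytes not to engulf them. Its normalized counts were 587, 200, 311, 278 and 345 in Rragc+/+ and 440, 354, 426 and 444 in RragcS74N/+. All 4 RragcS74N/+ libraries were above the Rragc+/+ median of 311, but Rragc+/+ replicate 1 was the highest of all 9. The log2 difference was 0.36 ± 0.25 (standard error), and it was 0.19 without Rragc+/+ replicate 2 and 0.57 without Rragc+/+ replicate 1. Its ligand gene Cd47 had a mean normalized count of 542 ± 140 (SD, n = 5) with both alleles wild type and of 521 ± 58.2 (SD, n = 4) with the edited allele.

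Cd101 was included for its lower value in RragcS74N/+ libraries, so this difference only describes the choice. Its normalized counts were 133, 247, 215, 192 and 124 in Rragc+/+ and 109, 101, 127 and 78.4 in RragcS74N/+, from 75 to 239 reads a library. Only RragcS74N/+ replicate 3 overlapped the other genotype, at 127 against 124 in Rragc+/+ replicate 5, and Rragc+/+ replicate 1 at 133 was close to both. The log2 difference of -0.78 ± 0.23 (standard error) ranged from -0.90 without Rragc+/+ replicate 5 to -0.65 without RragcS74N/+ replicate 4. The 3′ end of Cd101 had a GC content of 55.2%, higher than that of 93.0% of genes, whose median was 43.0%. After the trend of each library on 3′ GC content was removed, the log2 difference was -0.53 ± 0.18 (standard error).

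**Figure D1:**
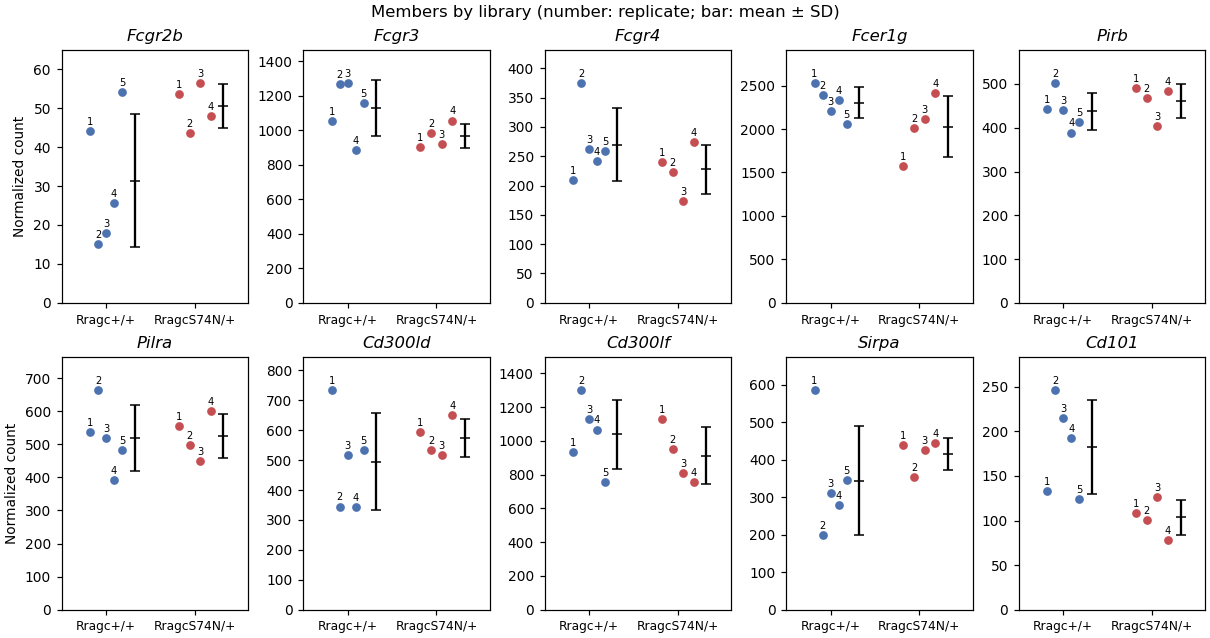
Normalized counts of the 10 members, with each library as a numbered point (blue, 5 Rragc+/+; red, 4 RragcS74N/+) and the black bar as the mean ± SD of a genotype; each vertical axis starts at 0 and has its own scale. Genotypes overlap in every panel, least for Cd101, where RragcS74N/+ replicate 3 (127) exceeds Rragc+/+ replicate 5 (124), and Fcgr2b has the widest spread within Rragc+/+, from 15.2 to 54.1.

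In all, 5 members had a negative and 5 a positive difference, with a median log2 difference of -0.08, while the median over all genes tested was 0.02 and 46.6% of them were negative. The negative side held both activating Fc receptors, Fcer1g, Cd300lf and Cd101, and the positive side held Fcgr2b, Pirb, Pilra, Sirpa and Cd300ld. Activating and inhibitory receptors were found on both sides, as the inhibitory Cd300lf was negative and the activating Cd300ld positive. Removal of the GC trend turned no sign, and of the 10 members Cd101 moved most.

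**Figure D2:**
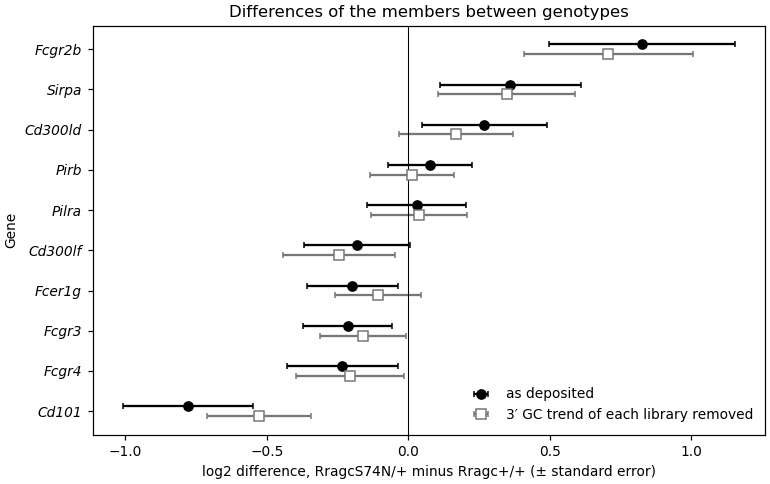
Log2 difference between genotypes (horizontal axis, RragcS74N/+ minus Rragc+/+, ± standard error) for the 10 members, from the deposited values (black circles) and after removal of the trend of each library on 3′ GC content (open squares). Cd101 moves from -0.78 to -0.53 and Fcgr2b from 0.83 to 0.71, and no member changes sign.

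The spread within a genotype was compared with counting error. In Rragc+/+ libraries the chi-square per degree of freedom of the recovered reads was 75.6 for Sirpa, 65.8 for Cd300ld and 9.34 for Fcgr2b, above that of 92.1%, 84.0% and 90.1% of the genes whose mean was within 1.5-fold of theirs. In RragcS74N/+ libraries the same genes had 4.403, 7.29 and 0.72, above 23.3%, 32.5% and 17.3% of such genes. These genes thus varied widely among Rragc+/+ libraries and little among RragcS74N/+ libraries, and the difference in spread was not tested. Pirb was steady in both, at 4.12 and 4.53, above 8.45% and 20.9% of genes with similar means. Fcer1g had 16.4 in Rragc+/+ and 76.8 in RragcS74N/+, above 8.75% and 46.2% of such genes, so neither was high for its level.

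Whether members varied together was tested on values centred within each genotype, which the choice of members did not use. Over the 45 pairs, Pearson correlations across the 9 libraries were tested by exact permutation within genotypes (2880 arrangements, two-sided). Pirb and Pilra were the most alike, with r = 0.93 (exact permutation p = 0.00104, adjusted p = 0.0469 over 45 pairs) and Spearman's rho of 0.92 (exact permutation p = 0.00104, adjusted p = 0.0469). Without the 2 libraries farthest from the median of Pirb, r was 0.90, and with each library left out it lay between 0.88 and 0.96. Here and below, r without 2 libraries used the centring from all 9, so an offset between genotypes can enter it. With 1 library left out, values were centred anew. Pirb with Pilra was the 1 pair that passed the adjusted threshold. Of all pairs of tested genes, 0.34% had an r of at least this size. Pirb with Pilra did not pass when columns were rescaled to the same total or when the GC trend was removed (r = 0.88, exact permutation adjusted p = 0.234).

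Cd300ld and Sirpa came next, with r = 0.90 and rho = 0.85 (exact permutation p = 0.0059 and 0.0167, adjusted p = 0.133 and 0.287). Their r was 0.88 without the 2 libraries farthest from the median of Cd300ld and 0.77 without Rragc+/+ replicate 1. In 6 pairs the unadjusted p was under 0.05, 5 with a positive and 1 with a negative r. The negative one was Fcgr2b with Cd300lf, at r = -0.75 and rho = -0.73 (exact permutation p = 0.0219 and 0.0434, adjusted p = 0.303 and 0.326), and it rested on Rragc+/+ replicates 2 and 5, since r was -0.38 without them. Fcgr4 with Pirb had r = 0.79 and rho = 0.88 (exact permutation p = 0.0337 and 0.0278, adjusted p = 0.303 and 0.287), and r was 0.43 without Rragc+/+ replicate 2 and RragcS74N/+ replicate 3. Fcgr4 with Pilra had r = 0.74 and rho = 0.78 (exact permutation p = 0.0458 and 0.0201, adjusted p = 0.3203 and 0.287), and r was 0.43 without the same 2 libraries. Both relations of Fcgr4 were thus weaker without those libraries, by an amount not measured on values centred anew. With 1 library left out, both were weakest without Rragc+/+ replicate 2, at r = 0.61 with Pirb and 0.50 with Pilra.
Cd101 was most alike to Cd300lf, at r = 0.76 and rho = 0.63 (exact permutation p = 0.0326 and 0.108, adjusted p = 0.303 and 0.440), with r = 0.49 without Rragc+/+ replicate 5 and RragcS74N/+ replicate 4. Fcer1g had r between -0.35 and 0.14 with the other members, its receptors Fcgr3 and Fcgr4 included. The median size of r over the 45 pairs was 0.36, against 0.35 over all pairs of tested genes. An r of at least 0.7 in size was seen in 10 member pairs, or 22.2%, against 11.6% of all pairs.

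**Figure D3:**
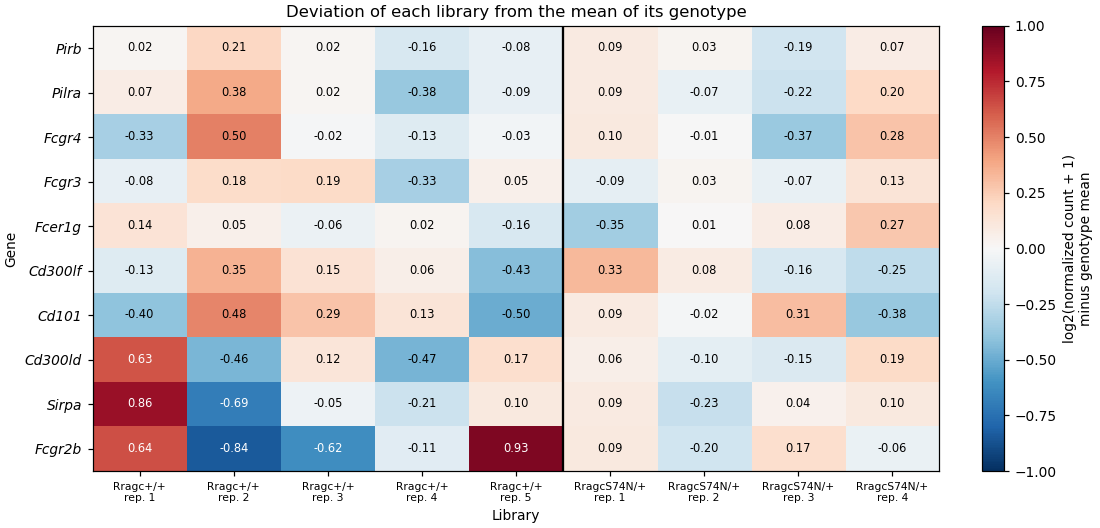
Deviation of each library (columns) from the mean of its genotype, in log2(normalized count + 1), for the 10 members (rows); red is above and blue below the mean, and the black line parts the genotypes. Pirb and Pilra share the sign in 8 of 9 columns, and Fcgr2b, Sirpa and Cd300ld are high in Rragc+/+ replicate 1 and low in replicate 2, where Cd101 is the opposite.

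**Figure D4:**
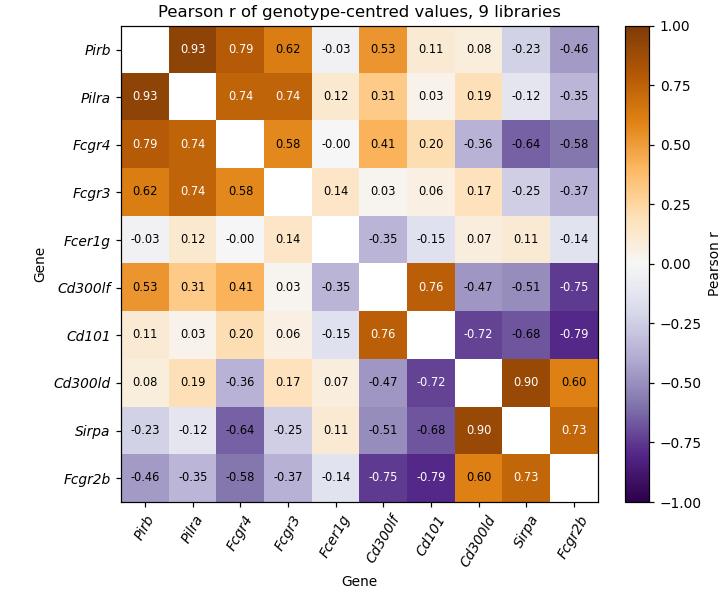
Pearson r of the genotype-centred values over 9 libraries for each pair of members (rows and columns), coloured from -1 (purple) to 1 (brown), with the diagonal left blank. The highest values are 0.93 for Pirb with Pilra and 0.90 for Cd300ld with Sirpa, the most negative is -0.79 for Fcgr2b with Cd101, and Fcer1g stays between -0.35 and 0.14.

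The genes whose genotype-centred values were most like those of Cd101 across the 9 libraries, as a description, were Tmc6 (Pearson r = 0.98), Taok3 (0.97), Abcf1 (0.97), Prpf6 (0.97) and Syngr2 (0.97). These points share library and base composition, and 4 of the 5 genes had a 3′ GC content of at least 50.2%, with 41.0% for Taok3. For the mean profile of the other 9 members they were Gm38345 (0.94), Spp1 (0.92), Glrx (0.92), Zfp688 (0.92) and Gtpbp2 (0.91).

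As Cd101 marks late neutrophils, the members were set against mean profiles of 31 late and 24 early maturation genes, a comparison added after values were seen. Early primary granule genes such as Mpo and Elane were not listed, so the early profile rests on other genes, Ly6g, Cybb and Ltb4r1 among them. Ly6g is also a sorting gene, as is Itgam in the late list. Cd101 had r = -0.06 with the late profile (rho = -0.25, exact permutation p = 0.874 and 0.509, adjusted p = 0.935 and 0.689 over 20 relations). Without the 2 libraries farthest from the median of the late profile, r was -0.34. This value and those without 2 libraries that follow kept the centring from all libraries. With the early profile Cd101 had r = -0.52 and rho = -0.43 (exact permutation p = 0.179 and 0.272, adjusted p = 0.676 and 0.627). Without the 2 libraries farthest from the median of the early profile, r was -0.35. The relation with the smallest p was Cd300lf with the early profile, at r = -0.88 and rho = -0.82 (exact permutation p = 0.00729 and 0.0208, adjusted p = 0.146 and 0.417), with r = -0.72 without the 2 farthest libraries. Pirb with the late profile was the other with an unadjusted p under 0.05, at r = 0.74 and rho = 0.62 (exact permutation p = 0.0385 and 0.114, adjusted p = 0.385 and 0.627), with r = 0.52 without the 2 farthest. None of the 20 passed the adjusted threshold.

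Other genes of these families and their signalling were described next, and 0 of 75 passed the adjusted threshold in limma, where the smallest adjusted p was 0.713. The genotypes were free of overlap in 3 of the 75 (4%), all higher in RragcS74N/+, against 1.69% of all genes in either direction. Among 29 other paired and immunoglobulin-like receptors tested of 60 sought, 17 differences were positive and 12 negative, with a median of 0.08 (log2). That median was -0.04 after removal of the GC trend. The largest in size were -0.56 ± 0.30 for Siglece, 0.47 ± 0.18 for Cd200r1, -0.46 ± 0.24 for Treml2 and 0.46 ± 0.28 for Trem3 (standard errors). Cd200r1, an inhibitory receptor for CD200, did not overlap between genotypes, with 39.7 to 55.1 normalized counts in Rragc+/+ and 59.5 to 83.6 in RragcS74N/+. Its log2 difference was 0.27 after removal of the GC trend. Of 13 other Fc receptor genes, Fcrl1 and Trim21 were listed, with log2 differences of -0.54 ± 0.34 and 0.21 ± 0.26 (standard errors), and Fcgr1 was not listed.

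The 31 tested genes of the ITAM pathway had a median log2 difference of -0.01, with 14 positive and 17 negative. Sos1, a guanine nucleotide exchange factor for Ras, had the largest at 0.73 ± 0.20 (standard error), with 16.4 to 22.5 normalized counts in Rragc+/+ and 30.3 to 39.6 in RragcS74N/+, which do not overlap. Cbl, a ubiquitin ligase that limits receptor signalling, did not overlap either, at 323 to 398 and 404 to 456, and was chosen for naming after its values were seen. After removal of the GC trend the log2 difference of Cbl fell from 0.21 to 0.05 and that of Sos1 from 0.73 to 0.54. Next to Sos1 in size was Gab2, which was negative at -0.53 ± 0.26 (standard error) and overlapped between genotypes. Its log2 difference was -0.48 after removal of the GC trend. The 11 tested ITIM phosphatases and docking proteins had a median of -0.18, with 4 positive and 7 negative, and a median of -0.05 after removal of the GC trend. Dok3, an inhibitory docking protein, had -0.59 ± 0.27, which was -0.09 after removal of the GC trend, and Pag1, an anchor for the kinase Csk, had 0.50 ± 0.27 (standard errors). Apart from these 75, the 55 tested maturation genes held 0 past the adjusted threshold (smallest limma adjusted p 0.713) and 0 free of overlap, with medians of -0.04 for the late and -0.03 for the early list.

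**Figure D5:**
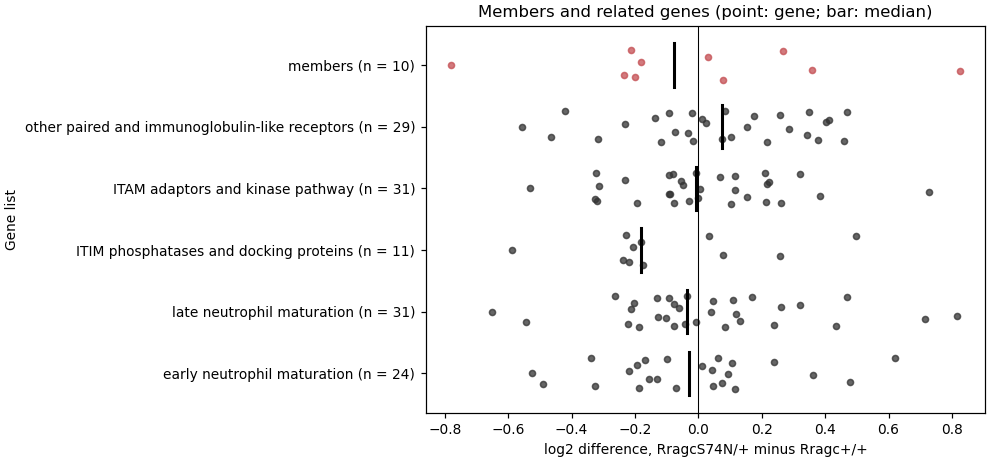
Log2 difference between genotypes (horizontal axis) for the 10 members (red) and the tested genes of 5 related lists (dark grey), with a point per gene, spread vertically only for legibility, and the median as a black bar. The members span -0.78 (Cd101) to 0.83 (Fcgr2b), and the medians lie between -0.18 and 0.08, all without removal of the GC trend.

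Markers of other cells were examined in the same libraries, since several members are also expressed outside neutrophils, and in sorted cells fewer cells of a type and less RNA per cell cannot be told apart. The sorting genes Ptprc, Itgam and Ly6g were listed, with summed normalized counts of 4963 to 5838 in Rragc+/+ and 4972 to 6159 in RragcS74N/+. Erythroid genes (8 of 15 listed) summed to 1104 to 5644 in Rragc+/+ and 386 to 2171 in RragcS74N/+, and their median log2 difference was -1.38 (1 positive and 6 negative of 7 tested). Monocyte and macrophage genes were listed for 11 of 24 and summed to 2557 to 3876 and 2526 to 4365, with a median log2 difference of -0.29 (5 positive and 6 negative), while Ccr2, Cx3cr1 and Irf8 were not listed. Eosinophil, basophil and mast cell genes (8 of 16) summed to 140 to 479 and 138 to 658, with a median log2 difference of 0.85 (5 positive and 1 negative of 6 tested). The other lists summed to 90.0 to 146 in Rragc+/+ and 86.2 to 132 in RragcS74N/+ for B cell genes (2 of 16), 14.5 to 28.9 and 14.6 to 18.8 for T and NK cell genes (1 of 17), 80.3 to 143 and 68.3 to 99.4 for dendritic cell genes (3 of 11), and 17.8 to 33.9 and 20.9 to 27.9 for platelet genes (1 of 8). Fcgr2b is prominent on B cells, whose defining genes Cd79a and Ms4a1 were not listed. The part of these markers in the members' values was not tested.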

How the data were processed

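Libraries were made from sorted bone marrow neutrophils by oligo-dT primed 3′-end sequencing. Per the study's methods and the submitters' processing notes, the authors used TopHat2 (version 2.0.10) to align reads to GRCm39 and HTSeq (version 0.6.1) to count them per gene and strand. The deposited values are a signal, gene read counts divided by 1 size factor per library. Collapse by molecular identifier and the filter on genes are not given in the sources used here, and counting error may understate the noise.

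All values were whole reads within 0.001 (100%), with 0 columns left without a sample. Libraries of a genotype differed beyond sampling noise in all 16 pairs (lowest chi-square over its degrees of freedom 5.70), so none was a duplicate. limma was run on log2(value + 1) for genes averaging at least 10 (version 3.58.1, R 4.3.3; genotype as the term, trended variance, Benjamini-Hochberg, threshold 0.05). The offset of 1 shrinks differences of low genes on this scale, but the value of Fcgr2b was still above those from edgeR and DESeq2. edgeR (version 4.0.16) and DESeq2 (version 1.42.0; 8 genes without an adjusted p) used the recovered reads. Sequence properties came from GENCODE transcripts of GRCm38, matched by symbol for 7067 of 7197 genes. The limma test between genotypes was tried on simulated counts, with known changes larger than those of the members. The members, lists and tests were chosen with earlier results of these data known. Named genes are the members, up to 4 genes of a list by largest absolute log2 difference, and the 5 genes most correlated with Cd101 and with the mean of the other members. The GC trend removal and maturation relations were added after the data were seen.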

Additional observations from a re-analysis of the deposited data

How the results depend on the processing

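Of 199 alternative values of the members' differences, 196 kept their sign and moved by less than the within-genotype SD pooled over both genotypes. The 3 others were for Pilra, near 0, whose log2 difference of 0.03 was -0.066 without Rragc+/+ replicate 4, -0.04 without RragcS74N/+ replicate 4 and -6.2e-05 without RragcS74N/+ replicate 1 (range -0.066 to 0.12 over the libraries left out). The alternatives were offsets of 0.5 and 5, a mean of at least 50, no filter, 2 rescalings, untrended variance, library weights, edgeR, DESeq2, each library left out and the GC trend removed. A filter of 50 leaves out Fcgr2b. A change of filter or of variance trend leaves a difference the same, so these settings could not fail. Leaving out a library cannot move a difference by as much as that SD, so there only the sign could turn. For all these settings the count of 196 says nothing of stability in size. The count of adjusted genes stayed at 0 in all of the alternatives, related genes included. The count of member pairs past the adjusted threshold was 1 (Pirb with Pilra) with either offset and with Spearman's rho, 0 once columns were brought to an equal total, 0 with the GC trend removed and 0 to 0 with each library left out. With a library left out, the smallest adjusted p that a single pair could reach was 0.0625 or 0.0781, so that last test could not pass and says nothing of stability. No paired analysis was possible because the replicate numbers were given in accession order and pair no samples. Fcgr2b (13 to 81 reads a library) and Cd101 (75 to 239) are the members most limited by depth.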
